A study of Homo sapiens with 9 samples.

Results

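The 3 ZC3H11A libraries of a 10plex antibody-barcode eCLIP (ABC) experiment in K562 cells were examined. They were chosen by the RBP and the cell line in the names of the peak lists, and they were compared with the other 27 libraries of the same 3 multiplexes, which carry 9 other RBPs (DDX3, EIF3G, FAM120A, IGF2BP2, LIN28B, PRPF8, PUM2, RBFOX2 and SF3B4). The series holds 9 samples, of which these 3 multiplexes are 3. K562 is a human erythroleukemia line, and no treatment separated the libraries. In ABC, each antibody carries its own DNA barcode, all 10 antibodies pull down RNA from 1 crosslinked lysate, the barcode is ligated to the RNA next to it on the bead, and the reads are sorted by barcode afterwards. ZC3H11A is therefore compared with RBPs from the same tube, and the complement control (CC) of ZC3H11A adds up what the other 9 antibodies of that tube caught. The sources do not say whether the 3 replicates were separate cultures, so p-values measure the spread between these libraries only.

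ZC3H11A is a zinc finger protein of the CCCH type. It associates with the TREX complex, which couples transcription and splicing of mRNAs to their export from the nucleus, it is found in nuclear speckles with polyadenylated RNA, and loss of the protein is known to hold polyadenylated mRNA back in the nucleus. It has also been linked to the expression of NFKBIA, the inhibitor that keeps NF-kB in the cytoplasm. A ZC3H11A peak marks RNA that was crosslinked near the barcoded antibody, and an enriched peak is one with a higher share of reads than in the CC at P below 0.001 and above 8-fold.

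ZC3H11A sites were of 3 kinds, and 30 nt of a few sites of each are shown because the agreement between replicates differed between them (RNA strand, 5′ to 3′, GRCh38). In the first kind, the genome itself reads like the end of a barcode oligonucleotide. The capitals in the next 5 sequences are GCCAAAGATC, which is 5 letters of a listed ABC barcode followed by the first 5 letters of the sequencing adapter, and all 5 genes were enriched in each replicate.
YAE1, chr7:39582890-39582919, plus strand: agagaaagatGCCAAAGATCggtatagctt
PRKCI, chr3:170272955-170272984, plus strand: acttatttttGCCAAAGATCtgaagtggag
TRIM66, chr11:8616881-8616910, minus strand: aagttcatgaGCCAAAGATCagaagtgagt
LINC01304, chr2:3960021-3960050, minus strand: caccttagagGCCAAAGATCagaacagtgg
LINC00939, chr12:125971896-125971925, minus strand: aacagtattgGCCAAAGATCtgaaccaatt

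In the second kind, the peak lies beside a long run of A. The capitals mark the first 20 letters of runs that are 35, 30 and 28 letters long.
MNS1, chr15:56461991-56462020, minus strand: cccaccccacAAAAAAAAAAAAAAAAAAAA
SGMS1, chr10:50458350-50458379, minus strand: cacctcaaacAAAAAAAAAAAAAAAAAAAA
LINC01923, chr2:198336554-198336583, minus strand: ctccccacacAAAAAAAAAAAAAAAAAAAA

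The third kind held neither, and here the capitals mark the bases inside the peaks of all 3 replicates. The first lies in an intron of a noncoding gene, those of FANCE and EDC4 in the 3′ UTR, and that of PRAME in the CDS. The first also comes close to GCCAAAGATC, with more mismatches than were allowed for the first kind.
LINC01583, chr15:82089347-82089376, plus strand: agtcagcaggaaCGGGTgccaaagagttga
FANCE, chr6:35466497-35466526, plus strand: tagggaatattGGCTTCCcagccagcaggg
EDC4, chr16:67884343-67884372, plus strand: GTATTGCGCCTGCTTGGGTTCTGCCATGCc
PRAME, chr22:22550866-22550895, minus strand: ggtgcaGGCCTGGCCCTTCACCTGcctccc

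ZC3H11A was a small part of each tube. Its merged peaks held 83081, 105577 and 53856 reads in replicates 1, 2 and 3, and its share of all reads pooled over the 10 barcodes was 4.72, 4.03 and 3.14%. PUM2 and EIF3G were smaller in each replicate and the other 7 libraries were larger, up to 2128610 reads for FAM120A in replicate 2. Of 4488, 9999 and 4679 ZC3H11A peaks in the lists against the CC, 909, 2501 and 907 were enriched (mean 1439 ± 920, SD, n = 3). These are 20.3, 25.0 and 19.4% of the listed peaks, against 21.5, 23.8 and 15.9% over all 10 libraries of the same replicates, so ZC3H11A lay near the background of the experiment in its share of enriched peaks. Most calls rested on very few reads. The median enriched peak held 3, 4 and 4 reads, 57.6, 48.1 and 40.5% of the enriched peaks held exactly 3, and 31, 166 and 129 held 10 or more. The lists of the 3 replicates were not made alike. P came from a chi-squared test throughout in replicates 1 and 2 and from Fisher's exact test at low expected reads in replicate 3, and the list of replicate 3 kept peaks in repeats, which were 166 of its 907 enriched peaks (18.3%). With 1 test in all replicates, 536, 1413 and 907 peaks were enriched (952 ± 440).

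The same site was rarely found enriched in a second ZC3H11A library. The overlap of the enriched peaks, as a share of the shorter list, was 15.4% for replicates 1 and 2 (140 peaks), 8.82% for replicates 1 and 3 (80 peaks) and 15.8% for replicates 2 and 3 (143 peaks). The mean of 13.3% was below that of every other RBP, which ran from 17.6% for PUM2 and 24.5% for IGF2BP2 to 59.2% for FAM120A. It was nevertheless above the overlap with any other RBP across replicates, which reached 1.98% at most, with PRPF8. In the exact permutation of RBP labels within replicates, 104 of 1000 choices of 1 library per replicate overlapped more than the ZC3H11A libraries did (two-sided p = 0.105, n = 3). These choices include those with 2 or 3 libraries of the same other RBP. The p-values of this permutation therefore cannot say whether ZC3H11A libraries overlapped more than libraries of unlike RBPs. Lists cut to the 200 enriched peaks of highest fold overlapped by 13.3% as well, and there only 3 other choices overlapped more (exact permutation, p = 0.004). Sites of the first kind had the higher folds among recurring genes, and this overlap was not recomputed without them. Without them the full lists overlapped by 10.6% (exact permutation, p = 0.145).

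**Figure D1:**
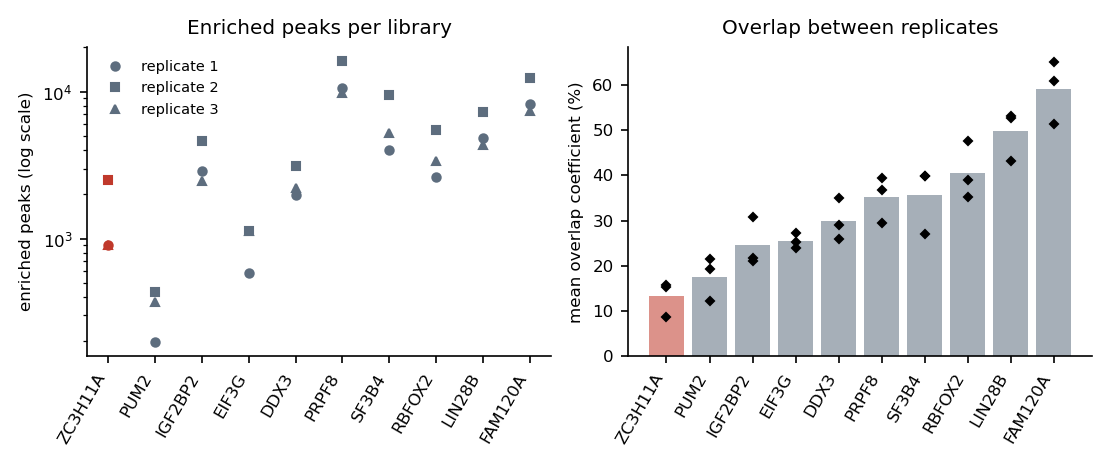
Enriched peaks per library (number, log axis, 1 point per replicate) and overlap of enriched peaks between replicates (% of the shorter list, bars the mean and diamonds the 3 pairs) for the 10 RBPs. ZC3H11A had 909, 2501 and 907 enriched peaks and the lowest mean overlap, 13.3%.

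Reads per peak and the kind of site both moved with this agreement. With adapter-like sites and A-runs left out, 6.49, 1.10 and 7.09% of the enriched ZC3H11A peaks of 3 reads were enriched again in another replicate (493, 1184 and 296 peaks), the lowest mean of the RBPs with a value. Among peaks of 4 to 9 reads the shares were 22.5, 8.11 and 25.2%. Among peaks of 10 or more reads they were 89.5, 44.2 and 79.2%, of 19, 147 and 24 peaks. The mean at 10 or more reads, 71.0% ± 23.7 (SD, n = 3), lay inside the range of the other RBPs, 62.2% for IGF2BP2 to 88.0% for LIN28B. The part of read number in the agreement was not tested beyond this split.

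Adapter-like sites were a small part of the enriched peaks and a large part of the sites found in each replicate. An adapter-like site is one with the first 10 letters of the adapter, or the barcode found most often for that RBP followed by the first 5, within 30 nt and with at most 1 mismatch. Such sites were 45, 62 and 106 of the enriched peaks (4.95, 2.48 and 11.7%), but 29 of the 67 sites of replicate 1 that were enriched in all 3 replicates. Of the adapter-like enriched peaks, 64.4, 45.2 and 26.4% were enriched in all replicates, against 4.54, 1.52 and 5.99% of the peaks of the third kind. The exact letters GCCAAAGATC stood at 24, 41 and 81 enriched ZC3H11A peaks and at no more than 1 peak of any other RBP's list in a replicate. The corresponding letters of the other 9 barcodes stood at no more than 1 ZC3H11A peak in a replicate. The letters began at a median of −17, −17 and −16 nt from the peak's 3′ end.

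The barcode at these sites was not the one listed for ZC3H11A. The study's list of barcodes puts ACAGT in the row of ZC3H11A, which preceded none of the 33 adapter-like ZC3H11A sites examined, whereas GCCAA, the barcode listed for LIN28B, preceded 16. For 9 of the 10 RBPs the barcode found most often was the listed barcode of another RBP, and the 10 barcodes found were all different. The libraries are named here as deposited. RBFOX2, whose known motif is GCAUG, had GCATG in 60.3, 65.4 and 69.5% of its enriched peaks, whereas ZC3H11A had it in 10.8, 10.8 and 11.8%. Means over replicates of the regions also differed by name: splice sites held 53.7% of the enriched peaks of SF3B4, which recognises the branch point, 5′ UTRs 48.4% of those of EIF3G, a translation initiation factor, and 3′ UTRs 94.3% of those of FAM120A. No such measure checks the ZC3H11A label itself.

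A-runs, here at least 15 A in a row within 30 nt of a merged peak, took a larger share of the reads in ZC3H11A than in any other library. They were noticed after the values had been seen and are given without a test. They held 24.5, 4.67 and 6.33% of the ZC3H11A reads in merged peaks (11.8 ± 11, SD, n = 3), against a mean of 0.511% for the other 9 RBPs. The highest other library held 2.8% in replicate 1 (IGF2BP2), 0.709% in replicate 2 and 0.696% in replicate 3 (both FAM120A), so the ZC3H11A share was 8.74, 6.58 and 9.09 times the next. Every ZC3H11A library thus lay above the other 9 libraries of its replicate. Runs of T of the same length held 0.353, 0.424 and 0.344% of the reads. Of the ZC3H11A peaks at A-runs, 86.5, 79.0 and 82.8% lay in introns.

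**Figure D2:**
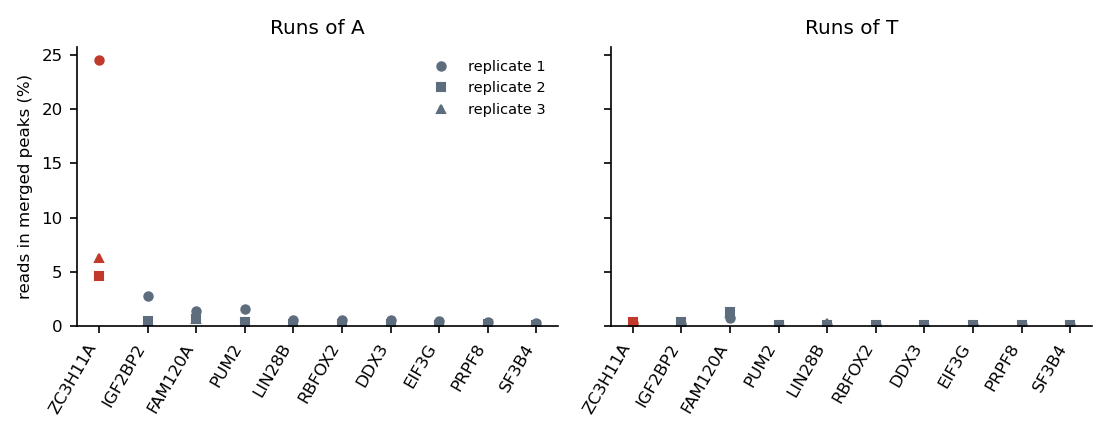
Share of reads in merged peaks (%) that lie at runs of 15 or more A (left) or T (right), 1 point per library, for the 10 RBPs. The 3 ZC3H11A libraries, at 24.5, 4.67 and 6.33%, were the highest of their replicates at runs of A.

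Peaks at A-runs recurred unevenly. The peak in the intron of MNS1, a gene of sperm flagella and motile cilia, held 374, 137 and 38 reads. That of SGMS1, which makes sphingomyelin, held 364 and 141 reads in replicates 1 and 2 and had no merged peak in replicate 3. That of LINC01923 held 357 and 134 reads and likewise none in replicate 3. These 3 peaks were thus highest in replicate 1 and lowest in replicate 3. Of the A-run peaks of replicate 1, 33.9% had a counterpart in replicate 2 and 15.2% in replicate 3, against 39.4 and 26.1% of all its peaks. Of those of replicate 2, 69.8% were found in replicate 1 and 22.1% in replicate 3, against 20.1 and 18.1%. Of those of replicate 3, 48.0% were found in replicate 1 and 27.6% in replicate 2, against 31.7 and 42.4%. Those of replicates 2 and 3 were thus found in replicate 1 more often than other peaks were. Few A-run peaks were enriched in the repeat-free lists, 27 in replicate 1 and 11 in replicate 2, but 183 were in replicate 3 (20.2% of its enriched peaks). Of the A-run peaks, 94.4% in replicate 1 and 92.4% in replicate 2 were missing from those repeat-free lists, against 0% in replicate 3. Such peaks could not be called enriched there. No A-run site was enriched in all 3 replicates, which therefore says little about their recurrence.

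Enriched ZC3H11A peaks lay mostly in exons of mRNAs in replicates 1 and 2 and more in introns in replicate 3. CDS held 47.9, 53.9 and 23.9% of them, 3′ UTRs 27.9, 32.4 and 24.6%, and introns more than 500 nt from a splice site (distal introns) 12.7, 5.60 and 38.9%. The 5′ UTR held 2.31, 1.76 and 1.87%. No region's share passed the test against the other 9 RBPs (exact permutation, adjusted p = 0.88 for each region), and the ZC3H11A mean for CDS, 41.9% ± 15.8 (SD, n = 3), stood beside 36.5% for the others. Replicate 3 moved with its adapter-like and A-run peaks, which together were 72, 73 and 289 peaks (7.92, 2.92 and 31.9%). Without them, distal introns held 9.20, 4.16 and 20.7% and CDS 50.2, 54.9 and 33.2%.

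Within the CDS, ZC3H11A peaks lay toward the stop codon. The median position, from 0 at the start codon to 1 at the stop codon, was 0.682, 0.804 and 0.758 (0.748 ± 0.0615, SD, n = 3). The other 9 RBPs averaged 0.446, from 0.116 for DDX3, an RNA helicase of translation initiation, to 0.739 for FAM120A. The difference of 0.302 passed the test (exact permutation, adjusted p = 0.0275). A share of 9.80, 12.1 and 16.7% of the peaks on mRNAs lay within 100 nt of the stop codon, against a mean of 5.38% in the others and 12.9% in PUM2, the highest (exact permutation, adjusted p = 0.0275). With any replicate left out neither adjusted p passed (0.1 to 0.15), while the differences stayed between 0.273 and 0.336 and between 5.71 and 9.24 percentage points. With 2 replicates there are only 100 choices, so p cannot fall below 0.01 before adjustment over the measures, and a pass was barely possible. The positions in the 3′ UTR (median 0.447 against 0.398) and the share within 100 nt of the 3′ end (5.22 against 2.29%) did not pass (exact permutation, adjusted p = 0.462 and 0.0967).

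The last 10% of the CDS held the peak of this profile, which was noticed in the profile itself and is given without a test. Of the enriched ZC3H11A peaks on mRNAs (653, 2068 and 413), 13, 19.2 and 14.5% lay there (15.6 ± 3.22, SD, n = 3). The highest other library of each replicate had 8.43, 6.52 and 6.21%, and the mean of the other 9 was 3.87%. The 3 ZC3H11A libraries thus lay above every other library. The share was 15.4% with adapter-like sites and A-runs left out, 16.6% with 1 test in all replicates and 17.3% over peaks of 5 or more reads.

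**Figure D3:**
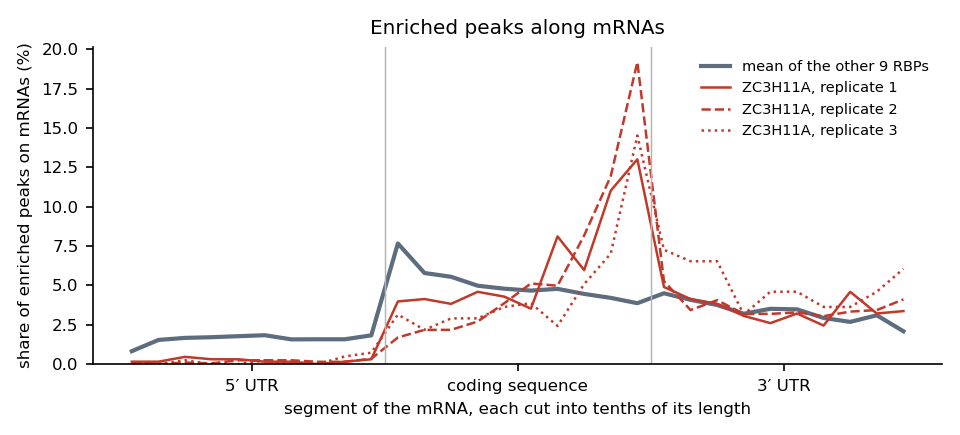
Share of enriched peaks on mRNAs (%) in 10 equal bins of the 5′ UTR, CDS and 3′ UTR, for the 3 ZC3H11A libraries and for the mean of the other 9 RBPs. ZC3H11A peaked in the last 10% of the CDS, with 13, 19.2 and 14.5%.

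A small part of the ZC3H11A genes recurred. Enriched peaks lay in 642, 1507 and 659 genes, 2250 in all, of which 1797 were found in 1 replicate, 348 in 2 and 105 in all 3. The 105 are 16.4% of the shortest list and 4.67% of all genes found, and among the other RBPs PUM2 was lower (14.5% of its shortest list) and the next, DDX3, was at 32.4%. The best peaks of 20 of the 105 genes were adapter-like, and 19 of these genes had the same site in each replicate. Of the other 85 genes, 78 protein-coding, 13 had the same site (15.3%), so that recurrence of a gene mostly meant different sites of it. Their best peaks lay in the 3′ UTR in each replicate for 23 genes, in the CDS for 11 and in distal introns for 6.

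The 85 genes were ranked by the mean log2 fold of the best peak over the CC, and 9 of the first 20 had their best peaks in the 3′ UTR in each replicate. FANCE, a subunit of the Fanconi anaemia core complex, was enriched at the site shown, 165, 165 and 181 nt after the stop codon, with 4, 7 and 6 reads against 0, 3 and 2 in the CC (log2 fold 6.22 ± 0.38, SD, n = 3). EDC4, the scaffold of the mRNA decapping complex, was enriched 201, 205 and 211 nt after the stop codon with 6, 24 and 14 reads against 2, 9 and 11 (5.73 ± 0.38). TAF1C, a subunit of the RNA polymerase I factor SL1, had 5, 5 and 3 reads at 1 site of its 3′ UTR (5.83 ± 0.72). These were the only 3 of the first 20 genes whose sites were the same in each replicate and lay on an mRNA.

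The best peaks of other 3′ UTRs did not all lie at 1 site. MAN2A2, a mannosidase of the Golgi, had 7, 29 and 9 reads (6.46 ± 0.68), at 1 site in replicates 1 and 2 and at another in replicate 3, and 1 of its 3 best peaks was adapter-like. DGCR8, the partner of DROSHA in microRNA processing, had 5, 5 and 4 reads (6.30 ± 0.83), and SLC25A37, the mitochondrial iron importer of erythroid cells, 5 in each (6.08 ± 1.21). GOLGA8A had 5, 4 and 3 reads (6.59 ± 0.06) and GOLGA8B 3, 3 and 6 (6.20 ± 1.31). These golgin genes are near-identical copies, so the split of reads between them is uncertain.

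In further genes, best peaks changed between CDS and 3′ UTR or introns. MRPS25, a protein of the small subunit of the mitochondrial ribosome, was first of the 85 with 6, 8 and 7 reads against 1, 0 and 3 (6.89 ± 0.70), in an intron in replicate 1 and in a 3′ UTR in the others. NFATC2IP had best peaks centred −57 and 12 nt from the stop codon in replicates 1 and 3 and one in its 5′ UTR in replicate 2 (6.34 ± 0.19). WSB1, a SOCS-box protein, had them 124, 119 and −197 nt from it (5.48 ± 0.63). HDAC6, a cytoplasmic deacetylase, had 3, 6 and 6 reads (5.48 ± 0.98). Further genes of the first 20, NKTR, PGGHG, CDC42BPB, RALGDS, FAM193A, ENSG00000227088 and LINC01583, lay between 5.36 and 6.34, and LINC01583 has the letters GCCAAAGATC with 2 mismatches at its site.

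**Figure D4:**
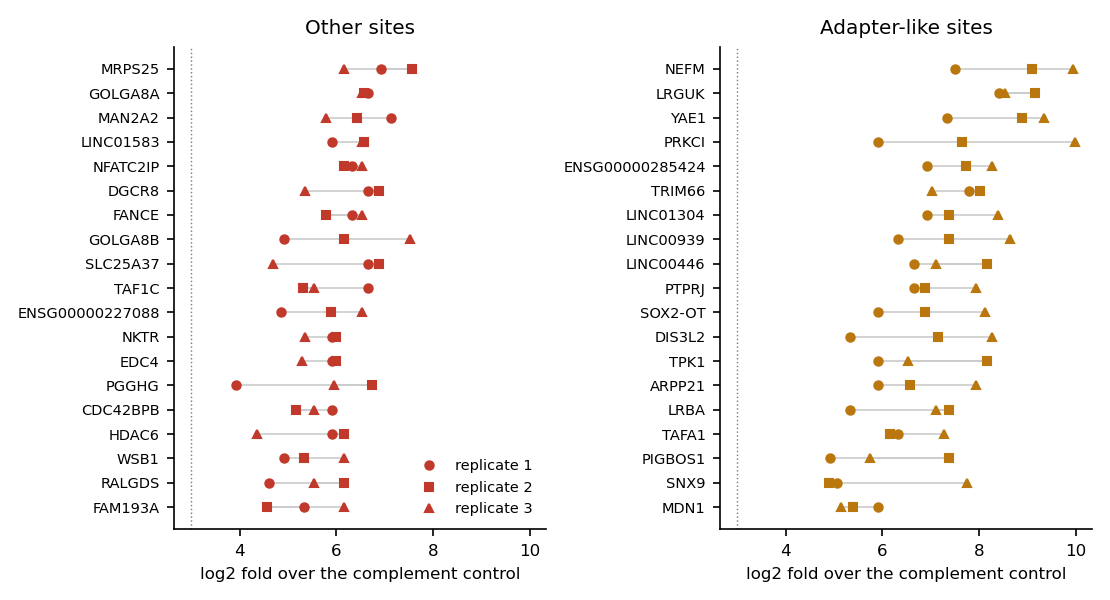
log2 fold over the complement control of the best enriched ZC3H11A peak of the recurring genes first by mean fold, 1 point per replicate, for genes outside (left) and at (right) adapter-like sites. The dotted line is the limit of 8-fold. The first gene outside them, MRPS25, had a mean of 6.89 and the first adapter-like gene, NEFM, one of 8.85.

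PRAME, a cancer-testis antigen that was chosen for its reads, had by far the most reads of a recurring site. Its CDS peak held 69, 87 and 62 reads against 27, 75 and 53 in the CC, the sum of the other 9 libraries (log2 fold 5.22 ± 0.45, SD, n = 3), centred at −1301, −1286 and −1286 nt from the stop codon. Some genes held many separate enriched peaks. NKTR, a cyclophilin with a domain rich in arginine and serine, had 11, 12 and 4. DGCR8 had 7, 10 and 7, SLC25A37 had 6, 8 and 6, and VEGFA, the vascular growth factor, had 5, 8 and 4.

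The 20 adapter-like genes had the higher folds. Their median of the mean log2 fold was 7.07, against 4.60 for the 85 others. They were led by NEFM, a neurofilament subunit, with 9, 23 and 32 reads (8.85), LRGUK with 17, 24 and 36 (8.70), YAE1 with 8, 20 and 21 (8.52), PRKCI, an atypical protein kinase C, with 9, 34 and 33 (7.86), ENSG00000285424 with 6, 9 and 10 (7.64), and TRIM66 with 11, 11 and 17 (7.62). Distal introns held all best peaks of 13 of the 20.

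Reads in all merged peaks of a gene, enriched or not, gave a comparison that does not rest on which peaks were enriched. Peaks of 3 reads still enter it. Reads in merged peaks, scaled to each library's total (RPM), were compared between ZC3H11A and the other 9 RBPs for 8631 genes with replicate as a block (limma, log2 of the RPM plus 5, adjusted p below 0.05), so that folds of low genes are understated. ZC3H11A was higher in 393 genes (4.55%) and lower in 2048 (23.7%). The median over all genes was −0.77 on this log2 scale, so differences below are read against that shift. A merged peak holds at least 3 reads, and 1663 of the 2048 lower genes had no merged ZC3H11A peak, which means fewer reads than a peak needs and not none. Of the 393 higher genes, 20 drew most reads from adapter-like sites, 69 from A-runs and 304 from neither. Of the 105 recurring genes 97 were tested, and 68 were higher and 0 lower. Both counts come from the same libraries.

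Genes that were highest in ZC3H11A in every replicate included both nuclear and mitochondrial mRNAs. There were 78 such genes among the 393, 45 of them outside adapter-like sites and A-runs. KAT2A, the GCN5 acetyltransferase, had 253, 388 and 167 RPM, against 136, 77.6 and 87.5 in the highest other library (log2 difference 4.35 ± 0.45, SE, limma adjusted p = 2.29e-07). PRAME had 3057, 4632 and 3064, against 2459, 2308 and 1734 in PRPF8 (2.09 ± 0.22, limma adjusted p = 2.33e-07). MRPS25 had 530, 672 and 501, against 185, 134 and 147 in PRPF8 (3.75 ± 0.41, limma adjusted p = 4.50e-07). In each of these genes every ZC3H11A library lay above the other 9 libraries of its replicate.

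VEGFA had 2082, 2936 and 1727 RPM, against 1080, 1089 and 1100 in the highest other library (2.19 ± 0.27, limma adjusted p = 4.10e-06). GOLGA8A had 397, 530 and 297, against 68.8, 58.2 and 22.9 (5.14 ± 0.60). HNRNPH1, a splicing regulator, had 831, 1373 and 1541, against 776, 990 and 936 (2.31 ± 0.31), the closest of these genes to the next library. At the very top by the moderated t stood LRGUK, LINC00446, NEFM, PARD3B, LINC02506 and YAE1, whose reads lie at adapter-like sites, and EYS, FGF23 and ENSG00000286152, whose reads lie at A-runs. The first 10 also held ENSG00000227088, a long noncoding RNA with 0% of its reads at either, which had 120, 189 and 353 RPM, against 15.0, 18.3 and 35.6 in the highest other library (4.78 ± 0.36, limma adjusted p = 9.09e-10). LINC02506 fell below the others (log2 difference −1.85) once its adapter-like sites were left out.

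**Figure D5:**
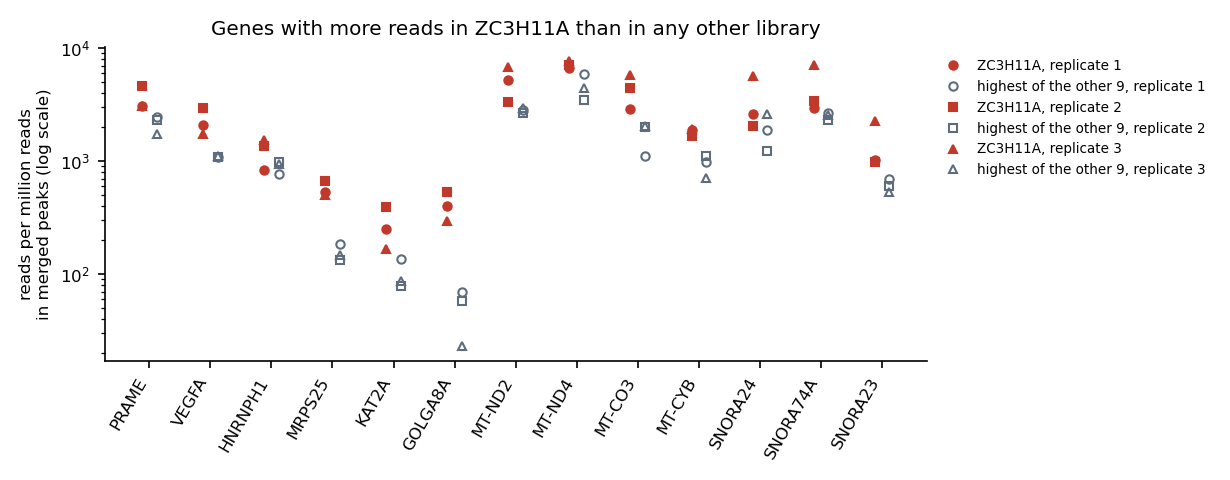
RPM in merged peaks (log axis) of the named genes in each replicate, for ZC3H11A (filled) and for the highest of the other 9 libraries (open). ZC3H11A lay above the other libraries of each replicate in PRAME (3057, 4632 and 3064) and MRPS25 (530, 672 and 501).

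Most RNAs of the mitochondrial genome were higher in ZC3H11A. Of 25 tested, 15 were higher and 0 lower by limma (16 and 3 at an unadjusted p below 0.05), with a median log2 difference of 1.48 against −0.77 for all genes, and 7 were highest in ZC3H11A in each replicate. MT-ND2, a subunit of complex I, had 5260, 3334 and 6870 RPM, against 2846, 2669 and 2947 in PUM2 (2.0 ± 0.21, SE, limma adjusted p = 3.19e-07). MT-CO3, of complex IV, had 2877, 4423 and 5756 (2.52 ± 0.31) and MT-CYB, of complex III, 1866, 1677 and 1913 (2.14 ± 0.29). As a share of all reads in merged peaks, mitochondrial RNA was 16.1, 14.8 and 17.2% in ZC3H11A, between 4.83% on average in FAM120A, the library with the most reads, and 20.8% in PUM2, the library with the fewest. The part of library size in this was not tested.

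Many H/ACA snoRNAs, which guide pseudouridylation, were also higher, whereas few C/D snoRNAs, which guide 2′-O-methylation, passed. Of 98 H/ACA snoRNAs tested, 41 were higher (41.8%) and 0 lower by limma (51 and 0 at an unadjusted p below 0.05), with a median of 1.19. Of 120 C/D snoRNAs, 3 were higher and 1 lower, with a median of 0.07. SNORA24 had 2624, 2036 and 5645 RPM, against 1872, 1223 and 2593 in PUM2 (2.04 ± 0.27, SE, limma adjusted p = 1.20e-05). SNORA74A had 2925, 3381 and 7019 (2.06 ± 0.28) and SNORA23 1023, 976 and 2284 (2.36 ± 0.33). Replicate 3 was the highest of the 3 in each of these genes. The H/ACA share of all reads was 7.40, 6.45 and 10.9%, first, second and first of the 10 libraries, beside 7.10% in PUM2. The C/D share was 10.2, 9.22 and 14.1%, beside 21.8% in PUM2. Some of these snoRNAs have near-identical copies. No snoRNA gene held an enriched ZC3H11A peak in the lists, and the difference between H/ACA and C/D was not tested.

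mRNAs of the pathways that ZC3H11A is known for gave few calls, and the lists are read against the 4.55% of all genes that were higher, the 23.7% that were lower and the median of −0.77. Of 24 genes of TREX and mRNA export, 2 were higher (8.33%) and 6 lower (25%, ZC3H14, NCBP2, GLE1, FYTTD1, NXF1 and DDX19A), with a median of −0.97, so the share of lower members was near that of all genes. The higher ones were ZC3H11A itself and DDX39A, an export helicase, with 6, 48 and 23 reads (log2 difference 2.30 ± 0.66, SE, limma adjusted p = 0.0141). DDX39A no longer passed without replicate 2 (limma adjusted p = 0.144) or replicate 3 (0.0591). Of these genes, 9 held an enriched peak in some replicate and 0 in all 3. Among the 6 lower ones, 5 had no merged ZC3H11A peak. Of 10 genes of NF-kB and its inhibitors, 4 were lower (NFKBIA, IKBKB, RELA and IKBKG), each with no merged ZC3H11A peak in any replicate, and 0 were higher by limma, also at an unadjusted p below 0.05. NFKBIA reached 54.9, 38.6 and 40.4 RPM in the highest other library. In the ZC3H11A library of replicate 3, 3 reads, the fewest that a merged peak holds, were 55.7 RPM. A peak at the NFKBIA level of the highest other library would thus have gone unseen there.

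SR proteins and speckle RNAs lay above the median of all genes. Of 18, 1 was higher and 0 were lower by limma (4 and 2 at an unadjusted p below 0.05), and their median was 0.34, or 0.30 to 0.53 over the alternatives. The higher one was MALAT1, a noncoding RNA of nuclear speckles, by only 0.39 (limma adjusted p = 0.0269), and it did not pass without the block (0.226), with voom weights (0.0538), or without replicate 1 (0.117) or 3 (0.0881).

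The ZC3H11A transcript itself was caught in each of its own libraries, unevenly. It held 13, 47 and 3 reads, or 156, 445 and 55.7 RPM, against 251, 191 and 180 in PRPF8. ZC3H11A thus lay above PRPF8 in replicate 2 and below it in replicates 1 and 3 (log2 difference from the other 9 RBPs 1.90 ± 0.70, SE, limma adjusted p = 0.0451, or 0.061 without the block and 0.0683 to 0.137 with a replicate left out). ZBED6, the intronless gene inside the first intron of ZC3H11A, had no merged peak.

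The other lists gave few higher genes. Of 16 cell cycle genes, 8 were lower (50%, against 23.7% of all genes) and 0 higher by limma, also at an unadjusted p below 0.05, with a median of −1.23. Of 20 short-lived regulatory mRNAs, 4 were lower (20%, EGR1, ZFP36, BTG2 and ATF3), with a median of −0.78, and 1 was higher (JUNB, with 4, 10 and 7 reads, log2 difference 2.48 ± 0.75, SE), which did not pass without replicate 1 or 2 (limma adjusted p = 0.0584 and 0.109). Of 12 heat shock genes, 2 were lower (16.7%, DNAJA1 and DNAJB1) and 0 higher by limma (1 at an unadjusted p below 0.05), with a median of −0.07. Of 144 zinc finger genes, 26 were lower (18.1%) and 6 higher (4.17%), with a median of −0.58. Of 31 replication-dependent histone genes, 6 were lower (19.4%) and 0 higher by limma (1 at an unadjusted p below 0.05), with a median of −1.18. Apart from the cell cycle genes, the shares of lower members were thus below that of all genes. Many lower members had no merged ZC3H11A peak, as did 1663 of the 2048 lower genes in all. They were 4 of the 8 cell cycle genes, 3 of the 4 short-lived mRNAs and 2 of the 2 heat shock genes. The same held for 26 of the 26 zinc finger genes and 4 of the 6 histone genes. The erythroid markers HBE1, HBG1 and TFRC held 94, 161 and 89, 18, 26 and 25, and 22, 66 and 33 reads, and GATA1 held 15, 22 and 0.

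The letters of enriched peaks were searched as all possible 5-mers on the RNA strand, overlapping ones included, in the peak and 50 nt around it. In ZC3H11A, 45 were more frequent (4.39%) and 228 less frequent (22.3%) than in the other 9 RBPs (limma, adjusted p below 0.05). GCCAA was first, in 14.9, 16.6 and 24.6% of the enriched peaks (mean 18.7 against 11.5%, limma adjusted p = 7.18e-05). These are the letters at the adapter-like sites. Without those sites GCCAA was in 14.3%, against 11.6% in the others, and was still more frequent (limma adjusted p = 0.00869, rank 12 by the moderated t). CAGGA, in 24.0 against 20.2%, then came first, with 24.2% (limma adjusted p = 0.00322). Less frequent were TTTCC, in 15.8 against 22.3%, TCGTT and TAGAT. Of the first 10 by the moderated t, a further 3 are likewise pieces of GCCAAAGATC. One of these, AAAGA, was the most frequent of the 10, in 24.3%.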

How the data were processed

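ABC libraries of 10 RBPs were made in 3 multiplexes of K562 cells. Per the labels and methods, the authors removed adapters with cutadapt 2.8, mapped to GRCh38 with STAR 2.7.6, called peaks with CLIPper and compared each peak with the complement control. The deposited lists give a p-value per CLIPper peak, and log2 folds and −log10 P per peak over an external RNA-seq background. Against the complement control they give a chi-squared statistic in replicates 1 and 2, and log2 folds and −log10 P in replicate 3. The reads of a peak stand in the CLIPper lists of replicates 1 and 3. For replicate 2 they were recovered as whole numbers from the fold over the external background. Both ways gave the same reads for 97.2% of the ZC3H11A peaks in replicate 1 and 96.9% in replicate 3. CC reads were recovered from the statistic in replicates 1 and 2, and the folds over the CC were rebuilt from them. In replicate 3 the CC reads came from the deposited fold. Whole CC reads were found for 90.7, 90.3 and 99.3% of the ZC3H11A peaks. On simulated ZC3H11A lists, 100% of the truly enriched peaks were called enriched, with at most 0.725% of the calls wrong. For peaks of low expected reads in replicate 3, P from the reads and recovered CC reads by 1 test came within 0.05 log10 of the deposited P for 91.9%. Intervals on the reads would cover counting error only and none are given.

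Peaks were annotated with GENCODE 44 (the authors used 35) and placed by their centre on 1 representative transcript per gene. Sequences and 5-mers were read from GRCh38. Genes and 5-mers were tested with limma 3.58.1 in R 4.3.3, and single values by exact two-sided permutation of RBP labels within replicates, with Benjamini-Hochberg adjustment over all features of a family. Genes needed 10 reads in 3 libraries, and the pseudocount was 5 RPM (reads in merged peaks scaled to each library's total). On simulated data for the 8631 genes, 98.0% of 16-fold and 30.0% of 4-fold increases were recovered, 72.0% of decreases to 0.0625-fold and 18.0% of decreases to 0.25-fold, with 0.223% false calls. The changed genes were drawn only from genes with more reads, so recovery in low genes was not simulated. Each unchanged gene had the same mean in all RBPs, so the false calls do not cover genes that differ among the other RBPs. Replicate was a block because the 10 libraries of a replicate come from 1 tube: deviations from the RBP means correlated by 0.109, 0.0695 and 0.128 on average within replicates 1, 2 and 3.

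The libraries, gene lists and tests were chosen with earlier results of these data known. Genes named were the first 20 recurring by mean log2 fold outside adapter-like sites (1 long noncoding RNA among them is not reported here), the first adapter-like ones, the first 10 by moderated t and the next that were highest in each replicate, and list members past the test. A list of ribosomal protein genes is not reported here. Alternatives were stricter and looser limits, the external background, other pseudocounts and filters, leaving out repeats, adapter-like sites, A-runs or a replicate, another transcript choice and no block. The HEK293T and single-RBP samples were not used here.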

Additional observations from a re-analysis of the deposited data

How the results depend on the processing

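Calls resting on 3 reads limited most results. The mean number of enriched peaks was 574 at P below 1e-05 and 16-fold, 952 with 1 test in all replicates, 885 with that test and adapter-like sites left out, 5722 over the external background, and 908 to 1705 with 1 replicate left out. Recurring genes numbered 41 at the stricter limits, 176 at any fold and 1201 over the external background. They numbered 59 with 1 test and adapter-like sites left out, and 143 to 268 over pairs of replicates. Where the same site was asked for, sites were counted and not genes: 67 sites of replicate 1 were enriched in each replicate. Of the 105 recurring genes, 32 had their best peaks at the same site in each replicate. The position in the CDS (difference 0.320, adjusted p = 0.08) and the stop codon share (5.79 percentage points, adjusted p = 0.08, both by exact permutation) no longer passed at the stricter limits. Leaving out a replicate gave 0.273 to 0.336 and 5.71 to 9.24 percentage points, neither past the test. With 2 replicates that test's p cannot fall below 0.01 before adjustment, so a pass was barely possible. The share near the 3′ end passed at any fold (3.29 percentage points, exact permutation, adjusted p = 0.0483). The overlap of the 200 peaks of highest fold (13.3%) passed as well, with adapter-like sites kept. Genes higher in ZC3H11A numbered 218 to 350 with a replicate left out. Genes lower numbered 1170 with voom weights and 894 to 1365 with a replicate left out. The 5-mers more frequent numbered 72 with repeats left out of replicate 3, 90 without adapter-like sites and A-runs, 8 in the peak alone, 29 without the replicate block, and 8 to 57 with a replicate left out. Those less frequent numbered 510 in the peak alone and 6 to 167 with a replicate left out. LINC02506 reversed to −1.85 without adapter-like sites, with A-runs kept or left out. Without the replicate block no other count moved by over 1.5 times. The cause of these changes was not tested. The choices with 1 test, A-runs or A-runs and adapter-like sites left out were made after seeing the data. Differences that never passed changed sign in 6 cases: at the stricter limits the CDS share (−2.88 percentage points) and the positions in the 5′ UTR (−0.0299) and 3′ UTR (−0.00241), with a replicate left out the distal intron share (−1.11 to 13.65) and the position in the 5′ UTR (−0.0748 to 0.191), both below 0 without replicate 3, and over the external background the share of noncoding exons (−0.449). Of the calls of single genes and 5-mers, 55 to 76 were lost with a replicate left out. The other 200 recomputed main values kept their direction and side of the threshold or, for counts, stayed within 1.5 times.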
